A study of Mus musculus with 4 samples.

Results

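The RNA levels of 35 genes of glycolysis and of the hypoxia response were followed in macrophages with and without RBP-J. The members are 21 glycolytic enzymes and transporters, from glucose uptake to lactate export and pyruvate entry into mitochondria, and 14 genes of the HIF pathway. They were matched by gene symbol. All 35 were listed, among 22026 symbols in all, and all 35 passed the minimum mean level of 1 FPKM (read fragments per length of transcript and per size of library) that left 11851 genes for testing. Each was above 0 in every library.

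Bone marrow derived macrophages of the C57BL/6 strain were grown from mice of 8 weeks for 3 days with CMG14-12 supernatant, a source of the macrophage growth factor M-CSF equal to 20 ng/ml. WT denotes the wild-type control, and RBP-J KO denotes mice with genotype Rbpj f/f;LysM cre, in which Cre expressed from the LysM promoter, active in macrophages and neutrophils, excises the floxed Rbpj gene. Each group had 2 libraries, numbered 1 and 2. Whether the control mice carried Cre or floxed alleles, and whether mice were pooled, is not given in the sources used here. Since the labels do not call the replicates separate mice or cultures, p-values reflect no more than the spread seen among these libraries.

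Glycolysis splits glucose into pyruvate in the cytosol, and lactate dehydrogenase can turn that pyruvate into lactate, which is exported. HIF, a dimer of the oxygen-regulated subunit encoded by Hif1a and its partner encoded by Arnt, binds DNA and induces most glycolytic genes when oxygen is short. With oxygen present, prolyl hydroxylases of the EGLN family mark the alpha subunit and the VHL protein directs its destruction. In macrophages both HIF and glycolysis are also raised by inflammatory activation. RBP-J binds DNA and carries the signal of Notch receptors to their target genes.

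Rbpj, the check of the labels, stood at 355 FPKM in WT replicate 1 and 573 FPKM in WT replicate 2, against 51.5 and 77.0 FPKM in the RBP-J KO libraries, a mean difference of 7.06-fold (log2 difference -2.82, SE 0.34, limma adjusted p = 0.457). All 8 macrophage markers examined were above 0 in every library, with Csf1r between 2287 and 4705 FPKM and Cd68 between 5173 and 6473 FPKM. Some of the 8 differed with genotype by more than most members. Cd14, the lipopolysaccharide co-receptor, was at 1715 FPKM in WT and 764 in RBP-J KO in replicate 1 and at 1570 and 799.7 in replicate 2 (limma adjusted p = 0.528). Lyz2, lysozyme, was at 218 and 94.3 and at 192 and 115 (limma adjusted p = 0.619). Both were lower in RBP-J KO without overlap. Lyz2 is also the LysM gene whose promoter drives Cre in RBP-J KO, and the part of the Cre allele in its level was not tested. Mertk, a receptor for apoptotic cells, and Fcgr1, an Fc receptor, were higher in RBP-J KO at both replicate numbers, with overlapping groups, by 1.49-fold and 1.29-fold in replicate 1 and 1.16-fold and 1.36-fold in replicate 2. Both replicate 1 libraries came as gene values and both replicate 2 libraries as transcript values, which were summed per symbol. The replicate numbers also differed in the Y-linked gene Ddx3y, at 193 and 174 FPKM in replicate 1 and listed at 0 in replicate 2. Xist, which is expressed in female cells, was listed at 0 in replicate 1 and was at 268 and 290 FPKM in replicate 2. These levels are those of male cells in replicate 1 and of female cells in replicate 2. Sex, file layout and replicate number thus cannot be told apart. The RBP-J KO to WT difference was therefore taken inside each replicate number, called pair 1 and pair 2, as well as over all 4 libraries. All differences and folds below are on the log2(FPKM + 1) scale, which understates the change of low genes, and where 2 levels stand against each other the WT library comes first and the RBP-J KO library second.

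Glycolytic genes were mostly lower in RBP-J KO by a small margin in both pairs, while the direction of HIF pathway genes differed between the pairs. Of the 21 glycolytic members 13 were lower in both pairs, where 34.1% of all genes tested were, and 2 were higher in both, where 25.1% of all genes were. The 2 pairs did not share a sign for 6 of the 21, as for 40.8% of all genes. Their median log2 difference was -0.21 in pair 1 and -0.24 in pair 2, against -0.05 and -0.02 over all genes tested. Over all libraries the glycolytic median was -0.21, but it was -0.37 without WT replicate 1, -0.43 without RBP-J KO replicate 2 and -0.13 without WT replicate 2. Of the 14 HIF pathway genes 10 were higher in pair 1, where 44.1% of all genes were, and 6 in pair 2, where 46.2% were. In both pairs 3 were lower and 5 higher, with a median of 0.17 in pair 1 and -0.10 in pair 2. The HIF median thus lay above the glycolytic median by 0.38 in pair 1 and by 0.14 in pair 2. No test was run on these medians. In such bulk samples fewer cells of a type and less RNA per cell cannot be told apart.

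The limma test called no gene, Rbpj included (limma adjusted p = 0.457), so a member left uncalled is not shown to be unchanged. It compared the groups alone, so that differences between replicate numbers counted as spread. By limma, adjusted over all genes by the method of Benjamini and Hochberg, 0 of 35 members and 0 of 11851 genes, or 0% of all genes, had an adjusted p under 0.05. The smallest adjusted p of a member was 0.999. At an unadjusted p under 0.05 the count was 0 of 35 members and 4.42% of all genes. The smallest unadjusted p in limma was 0.063, that of Pgam1. Every direction given below for a gene is therefore a description of these 4 libraries.

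**Figure D1:**
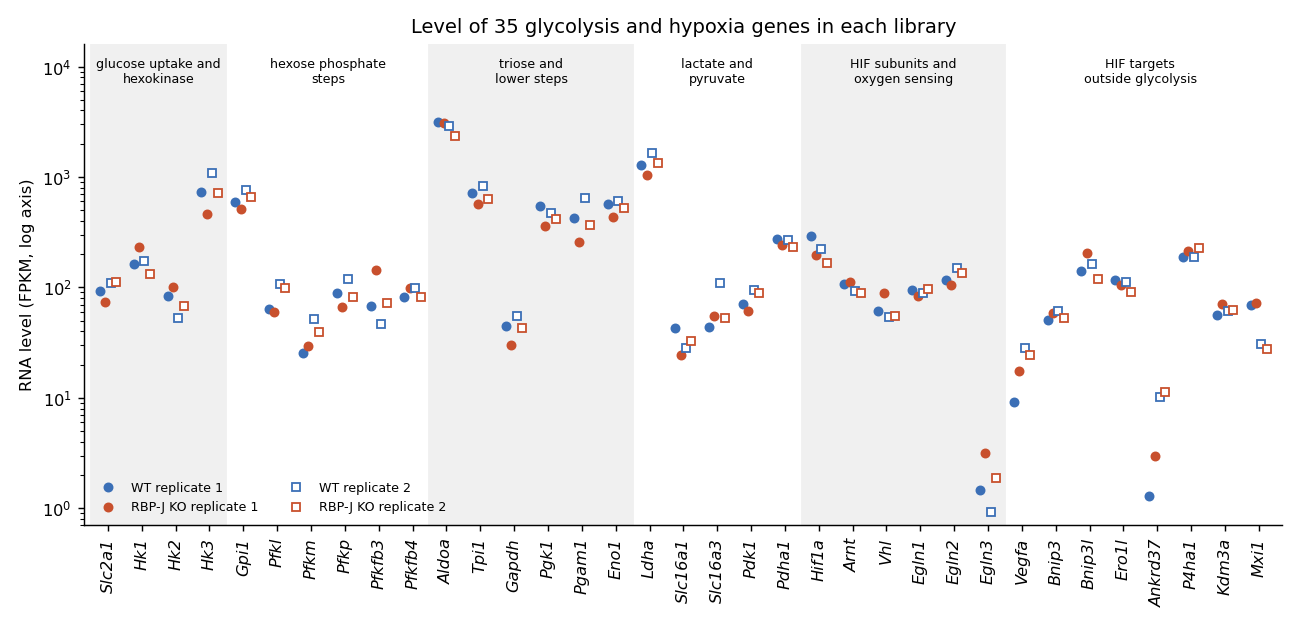
Level of each of the 35 members in each library, in FPKM on a log axis, with filled circles for replicate 1, open squares for replicate 2, blue for WT and red for RBP-J KO. Points are single libraries without error bars, and shading separates the 6 role groups. Aldoa was the highest in every library, and the lowest was Ankrd37 in both replicate 1 libraries and Egln3 in both replicate 2 libraries.

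Promoters of the members were read to see which hold the letters bound by HIF or by RBP-J. The sequences are the 250 bases before the annotated start, from RefSeq on build GRCm38.p6, which is not the build of the expression files, and 34 of 35 members had an entry. The HIF core was searched as ACGTG or GCGTG and the RBP-J core as GTGGGAA, on both strands, with overlapping matches of a core counted once. Printed below are the promoters of the members with at least 1.5-fold in both pairs (Pgam1 at chr19:41911621-41911870, plus strand; Hk3 at chr13:55021386-55021635, minus strand; the first of 2 Pfkfb3 starts at chr2:11553930-11554179, minus strand). Ldha is shown for its repeated HIF cores (chr7:46845554-46845803, plus strand, the first of 2 starts), Hif1a as the regulator itself (chr12:73907617-73907866, plus strand) and Pdha1 for its RBP-J core (chrX:160138431-160138680, minus strand). Each is written 5′ to 3′ on the strand of its gene, and capitals mark the matches.
Pgam1: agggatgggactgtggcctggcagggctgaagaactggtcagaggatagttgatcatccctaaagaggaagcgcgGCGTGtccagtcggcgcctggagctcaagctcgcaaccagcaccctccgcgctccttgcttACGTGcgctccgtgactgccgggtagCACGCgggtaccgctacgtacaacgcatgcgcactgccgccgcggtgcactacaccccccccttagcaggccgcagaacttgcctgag
Hk3: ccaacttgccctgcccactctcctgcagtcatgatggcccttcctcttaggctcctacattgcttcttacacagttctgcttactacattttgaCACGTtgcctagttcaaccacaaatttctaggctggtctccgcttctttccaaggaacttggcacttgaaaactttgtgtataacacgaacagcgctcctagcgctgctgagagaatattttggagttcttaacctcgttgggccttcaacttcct
Pfkfb3: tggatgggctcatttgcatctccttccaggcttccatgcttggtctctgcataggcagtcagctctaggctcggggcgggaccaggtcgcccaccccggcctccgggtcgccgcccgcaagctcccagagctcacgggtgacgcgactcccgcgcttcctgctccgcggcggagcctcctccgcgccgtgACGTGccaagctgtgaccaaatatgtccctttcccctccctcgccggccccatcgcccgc
Ldha: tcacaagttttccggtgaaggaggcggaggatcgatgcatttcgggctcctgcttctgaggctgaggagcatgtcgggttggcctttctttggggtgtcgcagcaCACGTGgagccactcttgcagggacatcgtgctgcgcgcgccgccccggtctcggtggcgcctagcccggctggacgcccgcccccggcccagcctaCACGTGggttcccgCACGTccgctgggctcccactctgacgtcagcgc
Hif1a: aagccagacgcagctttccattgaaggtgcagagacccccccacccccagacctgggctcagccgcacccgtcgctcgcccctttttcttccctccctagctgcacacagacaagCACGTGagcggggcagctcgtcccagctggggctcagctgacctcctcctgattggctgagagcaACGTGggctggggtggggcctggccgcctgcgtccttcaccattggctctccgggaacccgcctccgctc
Pdha1: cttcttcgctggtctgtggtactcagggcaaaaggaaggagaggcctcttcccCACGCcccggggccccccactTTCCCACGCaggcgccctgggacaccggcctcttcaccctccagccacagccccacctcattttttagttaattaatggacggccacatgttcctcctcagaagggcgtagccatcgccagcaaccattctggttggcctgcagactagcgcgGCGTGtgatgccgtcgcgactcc

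In the Pdha1 promoter the RBP-J core lies on the opposite strand, in the capital run TTCCCACGC, where it overlaps a HIF core. A HIF core was found in at least 1 promoter of 31 of the 34 members, or 91.2%, against 41.5% of the 27025 genes in the RefSeq table. The promoters of Gpi1, Tpi1 and Vhl held none. The core contains a CG, and the promoters of the members had a median G and C content of 60.4% against 52.4% over all promoters. Since 79.8% of the genes tested had an entry, which is under 80%, the same share over the tested genes was not used. The 41.5% thus also covers genes outside the 11851 tested, whereas every member was tested. It is not a matched background, and no enrichment of the core among members is claimed. By direction, the core was present in 14 of 16 members lower in both pairs, 6 of 7 higher in both and 11 of 11 with opposite signs. The RBP-J core was found for 2 members, Pdha1 and the second Egln2 start, or 5.88% of members against 6.18% of all genes in the table. A match is a description and not a shown binding site, and absence of these letters says only that they are not in this window.

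Summed over the 21 glycolytic members, the level was 9145 FPKM in WT replicate 1 and 7920 FPKM in RBP-J KO replicate 1, which is 13.4% lower. In pair 2 it was 10295 FPKM against 8144, which is 20.9% lower. The sum over all symbols was 1.81% lower in pair 1 and 6.15% lower in pair 2. Aldoa alone made up a large part of the glycolytic sum. Without it the remaining 20 genes were 19.3% and 21.1% lower. The 14 HIF pathway genes summed to 1309 and 1332 FPKM in pair 1 and to 1261 and 1160 FPKM in pair 2.

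Glucose enters these cells through transporters of the GLUT family and is trapped by hexokinases. Slc2a1, which encodes GLUT1, was at 93.6 FPKM against 73.3 in pair 1 and 111 against 112 in pair 2. Its groups overlapped, with the RBP-J KO libraries at the lowest and the highest level of the 4. Hk3, the hexokinase typical of myeloid cells, was the most abundant of the 3 hexokinases per length. It was at 735 FPKM against 464 in pair 1 and 1093 against 720.0 in pair 2. Both RBP-J KO libraries were under both WT libraries, if narrowly, and Hk3 was 1.58-fold lower in pair 1 and 1.52-fold lower in pair 2 (log2 difference over all libraries -0.63, SE 0.33, limma adjusted p = 0.999). That difference was -0.32 without RBP-J KO replicate 1, -0.35 without WT replicate 2 and -0.95 without RBP-J KO replicate 2.

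The other two hexokinases did not share this order. Hk1, the housekeeping form, was at 164 FPKM against 233 in pair 1 and 173 against 133 in pair 2, opposite directions. Hk2, the inducible form, was at 82.9 FPKM against 100.1 in pair 1 and 53.3 against 67.2 in pair 2. It was 1.21-fold and 1.26-fold higher in RBP-J KO, but the replicate numbers differed by more than that and the groups overlapped. As a share of hexokinase FPKM within a library, a measure that scaling between libraries cannot alter, Hk3 held 74.8% in WT and 58.2% in RBP-J KO in pair 1 and 82.8% and 78.3% in pair 2. The share of Hk2 was 8.44% and 12.6% in pair 1 and 4.04% and 7.31% in pair 2.

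Among the hexose phosphate steps, Gpi1, the isomerase that makes fructose 6-phosphate, was the most abundant. It was at 593 FPKM against 515 in pair 1 and 769 against 664 in pair 2, or 1.15-fold and 1.16-fold lower, and its groups overlapped. The 3 genes of phosphofructokinase, which commits sugar to glycolysis, differed from each other. Pfkp, the platelet form, was at 89.0 FPKM against 66.3 in pair 1 and 118 against 82.3 in pair 2, with both RBP-J KO libraries lowest (log2 difference -0.47, SE 0.24, limma adjusted p = 0.999). The difference of Pfkp was -0.27 without WT replicate 2. Pfkl, the liver form, was 1.06-fold and 1.08-fold lower, and Pfkm, the muscle form, was 1.16-fold higher in pair 1 and 1.31-fold lower in pair 2. Pfkp held 49.95% of phosphofructokinase FPKM in WT and 42.5% in RBP-J KO in pair 1, and 42.5% and 37.2% in pair 2.

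Pfkfb3 went the other way from most glycolytic members. It encodes an enzyme that makes fructose 2,6-bisphosphate, the strongest activator of phosphofructokinase, and is itself a HIF target. Its level was 67.2 FPKM against 143 in pair 1 and 46.9 against 71.6 in pair 2. Both RBP-J KO libraries were above both WT libraries, by 2.11-fold in pair 1 and 1.52-fold in pair 2 (log2 difference 0.84, SE 0.41, limma adjusted p = 0.999). That difference was 0.34 without RBP-J KO replicate 1 and 1.33 without RBP-J KO replicate 2. Its relative Pfkfb4 was at 81.4 FPKM against 99.4 in pair 1 and 97.8 against 82.5 in pair 2, opposite directions. Pfkfb3 was the sole member at least 1.5-fold higher in both pairs, a threshold that 3.86% of all genes passed, while Hk3 and Pgam1 were the 2 members at least 1.5-fold lower in both, as were 3.63% of all genes. No member was past 1.5-fold in both pairs with opposite signs, as 0.751% of all genes were. Hk3 no longer counted under upper-quartile, median or quantile scaling, nor Pfkfb3 with a pseudocount of 5 or with the highest transcript in place of the sum, while Egln3 counted as higher under upper-quartile and median scaling and with a pseudocount of 0.1.

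Taken in a single pair, 4 members were at least 1.5-fold higher in pair 1, where 10.3% of all genes were, namely Pfkfb3, Egln3, Vegfa and Ankrd37. The 4 that were lower by as much in pair 1, as were 12.1% of all genes, were Hk3, Pgk1, Pgam1 and Slc16a1. In pair 2 Pfkfb3 alone was higher, as were 6.48% of all genes, and Hk3, Pgam1 and Slc16a3 were lower, as were 8.18%.

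The steps from fructose bisphosphate to phosphoenolpyruvate had 6 of 6 genes lower in both pairs, against 34.1% of all genes, or 5 of 6 under median or quantile scaling, where Aldoa no longer was. Pgam1, the mutase that moves the phosphate of 3-phosphoglycerate, had the largest glycolytic difference downwards. It was at 427 FPKM against 259 in pair 1 and 641 against 370.3 in pair 2. Both RBP-J KO libraries were under both WT libraries, with folds of 1.65 and 1.73 (log2 difference -0.76, SE 0.31, limma adjusted p = 0.999). That difference was -0.46 without WT replicate 2 and -0.499 without RBP-J KO replicate 1. Tpi1, the triose isomerase, was at 713 FPKM against 569 in pair 1 and 822 against 634 in pair 2, again without overlap. Pgk1, which makes the first ATP of the pathway, was at 549.8 FPKM against 362 in pair 1 and 471 against 419.7 in pair 2, with both RBP-J KO libraries lowest.

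Eno1, enolase, was at 568 FPKM against 431 in pair 1 and 600.0 against 525 in pair 2, with no overlap of the groups. Aldoa, the aldolase, was at 3121 FPKM against 3060 in pair 1 and 2920 against 2328 in pair 2. The pair 1 values were nearly equal and the groups overlapped, so that the lower mean of RBP-J KO came from replicate 2. Gapdh, the triose phosphate dehydrogenase, was at 44.7 FPKM against 30.1 in pair 1 and 54.9 against 42.5 in pair 2, lower in RBP-J KO without overlap. It ranked 7168 of 11851 genes by mean level, where Tpi1 ranked 535. Gapdh, Pgk1, Pgam1, Eno1, Tpi1, Ldha and Aldoa have processed copies elsewhere in the mouse genome, and how reads that match several places were counted is not given in the sources used here, so that the levels of these genes are uncertain.

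At the end of the pathway, Ldha, which makes lactate, was at 1295 FPKM against 1042 in pair 1 and 1659 against 1347 in pair 2. The folds of 1.24 and 1.23 were nearly equal, but the 2 replicate numbers differed by as much and the groups overlapped. Slc16a1, the lactate carrier MCT1, was at 42.6 FPKM against 24.3 in pair 1 and 28.6 against 33.0 in pair 2. Slc16a3, the HIF-induced lactate exporter MCT4, was at 43.5 FPKM against 55.5 in pair 1 and 110 against 52.6 in pair 2. For both carriers the pairs pointed in opposite directions, and MCT4 was set apart by 1 library, WT replicate 2. Slc16a3 held 50.5% of the FPKM of the 2 carriers in WT and 69.6% in RBP-J KO in pair 1, and 79.4% and 61.5% in pair 2.

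Pyruvate enters mitochondrial oxidation through pyruvate dehydrogenase, whose E1 alpha subunit is encoded by Pdha1 and which is switched off by the kinase Pdk1. Pdha1 was at 273 FPKM against 243 in pair 1 and 270.2 against 232 in pair 2, a difference of 1.12-fold and 1.16-fold without overlap. Pdk1 was at 71.1 FPKM against 61.3 in pair 1 and 95.4 against 88.4 in pair 2, with overlapping groups.

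**Figure D2:**
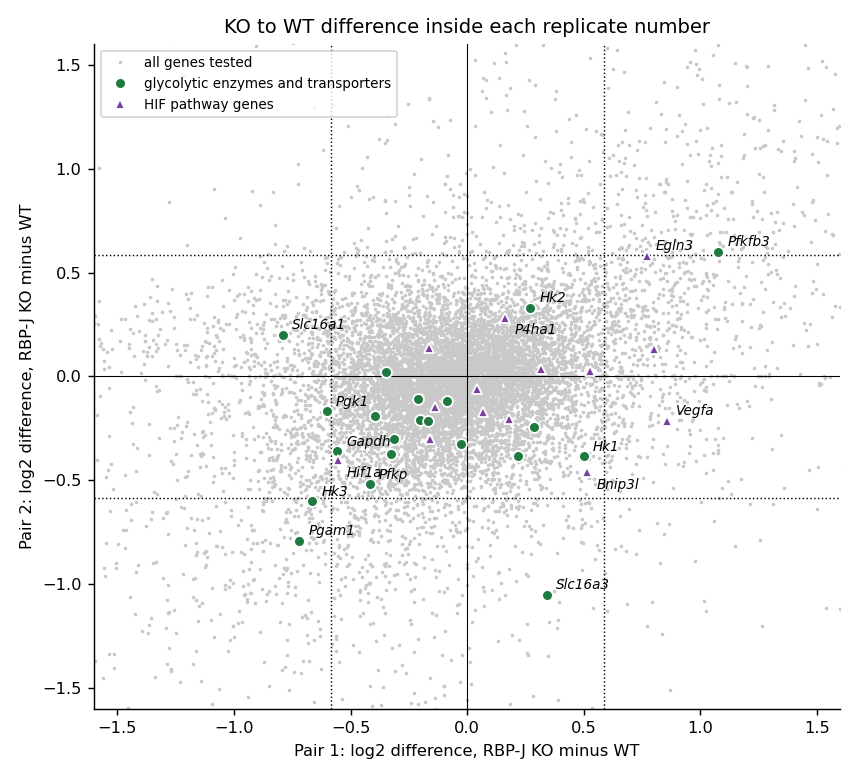
Log2 difference of RBP-J KO minus WT in pair 1 (horizontal axis) and pair 2 (vertical axis), with grey dots for all genes tested, green circles for glycolytic members and purple triangles for HIF pathway genes. Dotted lines mark 1.5-fold. Pgam1 and Hk3 lie past them at lower left and Pfkfb3 at upper right, and 683 of 11851 genes lie outside the axes, which end at 1.6.

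Of the 6 genes of the HIF subunits and oxygen sensing, 2 were higher and 2 lower in both pairs, near the 25.1% and 34.1% of all genes. Hif1a, the regulated subunit, was at 292 FPKM against 198 in pair 1 and 221 against 166 in pair 2. Both RBP-J KO libraries were under both WT libraries, with folds of 1.47 and 1.32 (log2 difference -0.48, SE 0.23, limma adjusted p = 0.999). That difference was -0.28 without WT replicate 1. Its partner Arnt was at 108 FPKM against 111 in pair 1 and 93.4 against 89.4 in pair 2, within the spread of the replicates. Since HIF-1 alpha is regulated largely through protein stability, its mRNA is not a measure of HIF activity.

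Of the 3 prolyl hydroxylases, Egln1 was at 94.8 FPKM against 84.5 in pair 1 and 88.7 against 97.5 in pair 2. Egln2 was at 117 FPKM against 106 in pair 1 and 149 against 135 in pair 2. The groups overlapped for both. Egln3, a HIF target and the hydroxylase that acts as its feedback, was low, at 1.45 FPKM against 3.18 in pair 1 and 0.92 against 1.87 in pair 2. Both RBP-J KO libraries were above both WT libraries, and Egln3 missed 1.5-fold in pair 2 by little (1.71-fold and 1.49-fold). It made up between 0.39% and 1.65% of the FPKM of the 3 hydroxylases. Vhl was at 61.2 FPKM against 88.4 in pair 1 and 54.3 against 55.4 in pair 2, so that it stood apart in RBP-J KO replicate 1 alone.

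HIF targets outside glycolysis were mixed, with 7 of 8 higher in pair 1, where 44.1% of all genes were, and 3 of 8 higher in pair 2, where 46.2% were. P4ha1, a collagen prolyl hydroxylase, was at 189 FPKM against 212 in pair 1 and 187 against 227 in pair 2, with both RBP-J KO libraries highest by 1.12-fold and 1.22-fold. Kdm3a, a histone H3K9 demethylase, was at 56.1 FPKM against 70.2 in pair 1 and 60.8 against 62.2 in pair 2, also without overlap. Ero1l, an oxidase of protein folding, was at 117 FPKM against 105 in pair 1 and 111 against 89.97 in pair 2. It was the only one of these 8 that was lower in both pairs.

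The BNIP3 proteins, which mark mitochondria for autophagy, went in opposite directions in the 2 pairs. Bnip3l was at 142 FPKM against 204 in pair 1 and 164 against 119 in pair 2, and Bnip3 was at 51.2 against 58.2 and 61.4 against 53.2 FPKM. Vegfa, the angiogenic growth factor, was at 9.16 FPKM against 17.4 in pair 1 and 28.3 against 24.3 in pair 2. Ankrd37, an ankyrin repeat protein, was at 1.28 FPKM against 2.97 in pair 1 and 10.3 against 11.3 in pair 2. For both genes the replicate number separated the libraries more than the genotype did. Mxi1, a repressor of the MYC network, was at 68.7 FPKM against 72.0 in pair 1 and 31.0 against 27.4 in pair 2, again split by replicate number.

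**Figure D3:**
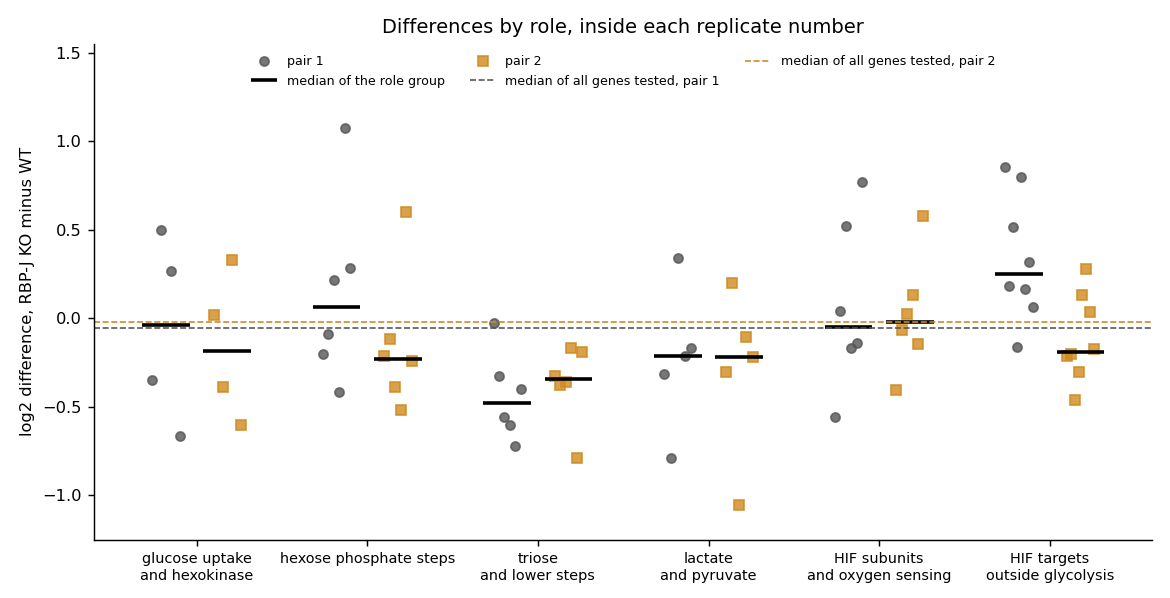
Log2 difference of RBP-J KO minus WT for each member by role group, with grey circles for pair 1 and orange squares for pair 2. Black bars are medians of the role group and dashed lines are medians over all genes tested. The 6 genes of the triose and lower steps are below 0 in both pairs, with medians of -0.48 and -0.34, whereas HIF targets outside glycolysis have medians of 0.25 in pair 1 and -0.19 in pair 2.

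Counted by overlap over all 4 libraries, 8 of 21 glycolytic members were lower in both RBP-J KO libraries than in both WT libraries, where 18.2% of all genes tested were. These were Hk3, Pfkp, Tpi1, Gapdh, Pgk1, Pgam1, Eno1 and Pdha1. Only Pfkfb3 was higher without overlap, where 11.7% of all genes were. By role, glucose uptake and hexokinases had a median of -0.04 in pair 1 against -0.18 in pair 2, and the hexose phosphate steps 0.07 against -0.23. Lactate and pyruvate genes had -0.21 against -0.22. Of these 5 genes 3 were lower in both pairs, where 34.1% of all genes were. Of the 14 HIF pathway genes, Hif1a and Ero1l were lower without overlap and Egln3, P4ha1 and Kdm3a were higher.

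The replicate 2 tables show which transcripts the sums were made of for the 11 members with several. Nearly all Ldha came from 1 transcript (99.8% in WT and 99.7% in RBP-J KO), as did Hk1 (98.6% and 98.5%) and Aldoa (94.1% and 91.9%). Hk3 was split mainly between 2 transcripts of the same protein isoform. The first was at 399.9 FPKM against 307, and the second at 654 FPKM against 408, so that both were lower.

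Pfkfb3 had 8 transcripts, and the sum was spread over different ones in each library. The largest of WT replicate 2 were at 23.4 FPKM against 0.12 and at 21.8 against 0.02. The largest of RBP-J KO replicate 2 were at 34.2 and 24.5 FPKM, each being at 0.01 in the WT library. A single library per group gives no error for such a split. For Slc16a3 the 3 transcripts were at 61.8 FPKM against 21.1, 11.7 against 9.73 and 36.6 against 21.8, each lower in RBP-J KO.

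**Figure D4:**
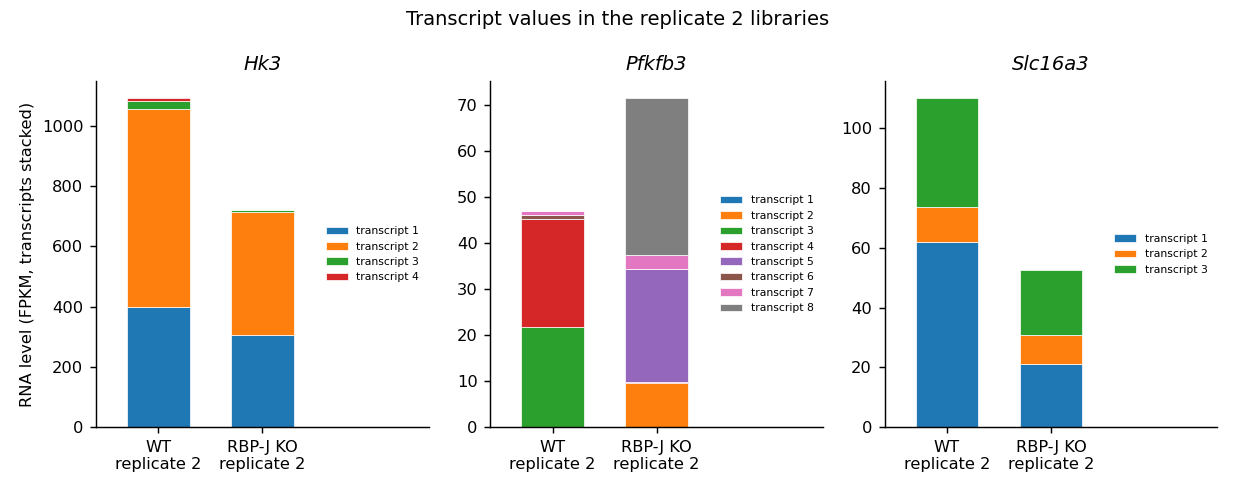
Transcript values of Hk3, Pfkfb3 and Slc16a3 in the replicate 2 libraries, stacked, in FPKM on a linear axis from 0, with 1 bar per library and no replicate. Colours number the transcripts in order of their identifier. The colours of Hk3 and Slc16a3 recur in both bars, whereas the largest Pfkfb3 transcripts of one bar are near 0 in the other.

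Further genes of these pathways, taken from lists that share no gene with the members, gave the surroundings. Of 18 other glycolysis genes tested 7 were lower and 1 higher in both pairs, with a median log2 difference of -0.11. The share that was lower is near the 34.1% of all genes, while 25.1% of all genes were higher. Pkm2, the pyruvate kinase gene, was at 3163 FPKM against 2600 in pair 1 and 3085 against 2509 in pair 2, lower without overlap by 1.22-fold and 1.23-fold. Slc2a3, the high-affinity transporter GLUT3, was at 44.8 FPKM against 24.7 in pair 1 and 37.4 against 27.2 in pair 2, lower by 1.78-fold and 1.36-fold. Eno2, neuronal enolase, was at 1.97 FPKM against 0.73 in pair 1 and 8.64 against 2.65 in pair 2.

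Of 12 further genes of pyruvate entry, 7 were lower and 0 higher in both pairs, against 34.1% and 25.1% of all genes, with a median of -0.17. Pdp1, the phosphatase that switches pyruvate dehydrogenase on, was at 75.6 FPKM against 54.6 in pair 1 and 88.4 against 39.2 in pair 2, and the second phosphatase Pdp2 was at 24.9 against 19.2 and 44.4 against 23.3 FPKM. Brp44l, which encodes a subunit of the mitochondrial pyruvate carrier, was at 196 FPKM against 167 in pair 1 and 265 against 154 in pair 2. Each of the 3 was lower without overlap between groups, but they were named for their large pair differences. Of all 12, 6 were lower without overlap and 0 higher, where 18.2% and 11.7% of all genes were. In the pentose phosphate pathway, 5 of 9 genes tested were lower and 1 higher in both pairs, against 34.1% and 25.1% of all genes, with a median of -0.17. The one that was higher was Taldo1, transaldolase, at 2040 FPKM against 2699 in pair 1 and 1398 against 2128 in pair 2. Its partner in the non-oxidative branch, Tkt (transketolase), was at 740.5 FPKM against 626 in pair 1 and 946 against 771 in pair 2, and Rpia, the ribose phosphate isomerase, was at 56.0 against 49.0 and 85.1 against 52.8 FPKM.

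Other HIF pathway genes differed little, with 4 lower and 2 higher in both pairs of 11 tested, near the 34.1% and 25.1% of all genes, and a median of -0.06. Tceb1 and Tceb2, elongin subunits of the VHL ubiquitin ligase, were lower by 1.25-fold and 1.13-fold in pair 1 and by 1.06-fold and 1.13-fold in pair 2. Siah2, a ligase that removes prolyl hydroxylases, was at 36.1 FPKM against 31.7 in pair 1 and 37.4 against 34.4 in pair 2. Epas1, the HIF-2 alpha subunit, picked once its values were known, was at 150.2 FPKM against 70.7 in pair 1 and 15.4 against 58.5 in pair 2, past 1.5-fold in opposite directions.

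Other hypoxia targets were split, with 13 of 29 tested lower and 7 higher in both pairs, against 34.1% and 25.1% of all genes. Their median was 0.02 over all libraries but below 0 in each pair, at -0.07 and -0.12. At least 1.5-fold lower in both pairs were 5 of the 29 and higher 1, against 3.63% and 3.86% of all genes. Bhlhe41, a HIF-induced repressor, was at 154 FPKM against 82.9 in pair 1 and 179 against 87.5 in pair 2, lower by 1.84-fold and 2.03-fold (log2 difference -0.95, SE 0.19, limma adjusted p = 0.585). Trf, transferrin, was at 394 FPKM against 840.1 in pair 1 and 524 against 1092 in pair 2, higher by 2.13-fold and 2.08-fold. Plod2, a collagen lysyl hydroxylase, had 1.04 FPKM in the first WT library and 3.01 in the second, and both RBP-J KO libraries list it at 0. Hmox1, haem oxygenase, picked once its values were known, was at 3224 FPKM against 1439 in pair 1 and 3234 against 1853 in pair 2. None of these genes passed limma's adjusted threshold.

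Some members, such as Mxi1 and Ankrd37, differed more between replicate numbers than between genotypes. Among members, 5 of 35 (14.3%) were at least 1.5-fold higher in WT replicate 2 than in WT replicate 1, where 10.3% of all genes were. They were Pfkl, Pfkm, Slc16a3, Vegfa and Ankrd37. Another 2 (5.71%), Hk2 and Mxi1, were lower by as much, where 17.2% of all genes were. Between the RBP-J KO libraries 4 of 35 were higher in replicate 2 by as much and 5 lower, where 10.1% and 14.7% of all genes were. The median log2 difference of replicate 2 minus replicate 1 was 0.20 over members and -0.12 over all genes in WT. In RBP-J KO it was 0.16 and -0.08. For glycolytic members it was 0.26 in WT and 0.31 in RBP-J KO, and for HIF pathway genes -0.05 and -0.20. Glycolytic members thus lay higher in replicate 2, while all genes lay slightly lower. Outside the members, 3 genes picked once their values were known were high in WT replicate 2 alone. Aldoc, brain-type aldolase, was at 165 FPKM there and between 20.8 and 28.6 FPKM in the other libraries, Slc2a6, a GLUT family member, was at 142 FPKM against 12.5 to 19.1 FPKM, and Ndrg1, a classical hypoxia target, was at 168 FPKM against 24.3 to 62.3 FPKM. Ddit4, a stress-induced inhibitor of mTOR signalling and picked in the same way, was at 2.82 FPKM against 6.18 in pair 1 and 13.4 against 14.1 in pair 2.

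**Figure D5:**
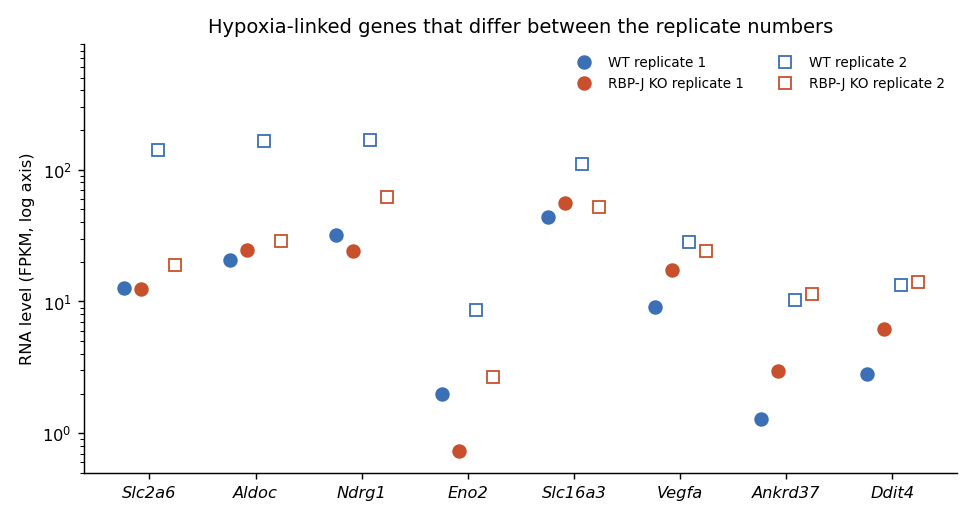
Levels of 8 hypoxia-linked genes in each library, in FPKM on a log axis, with filled circles for replicate 1, open squares for replicate 2, blue for WT and red for RBP-J KO. The open blue square, WT replicate 2, stands above the other libraries for Slc2a6, Aldoc, Ndrg1, Eno2 and Slc16a3, while both replicate 2 libraries are high for Ankrd37 and Ddit4.

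Markers of cycling and of other marrow cells differed beside these results. The 17 proliferation genes listed had a median log2 difference of -1.58 in pair 1, with 17 of 17 lower, and of 0.09 in pair 2, with 15 of 17 higher, and they summed to 6014, 2958, 4370.4 and 4711 FPKM in WT replicate 1, RBP-J KO replicate 1, WT replicate 2 and RBP-J KO replicate 2. For the 12 neutrophil markers with an entry the median was 0.27 within pair 1 and 1.88 within pair 2. They summed to 7369 and 8720.3 FPKM in replicate 1 and to 374 and 1201 FPKM in replicate 2, with Retnlg and Cxcr2 listed at 0 in WT replicate 2, and S100a8 was at 2473 FPKM against 2971 in pair 1 and 69.6 against 270.5 in pair 2. Dendritic cell markers had medians of 2.70 and 0.14, with sums of 29.5 and 166.5 FPKM in pair 1 and of 41.1 and 25.1 FPKM in pair 2. Zbtb46 and Ccr7 were listed at 0 in both replicate 2 libraries, Zbtb46 also in WT replicate 1, and Flt3 and Xcr1 in WT replicate 2. Most of the pair 2 sums was Itgax, at 24.1 FPKM against 95.1 in pair 1 and 40.0 against 22.4 in pair 2. The 8 macrophage markers summed to 16834 FPKM against 19091 in pair 1 and 15405 against 12556 in pair 2. The highest sums in any library were 6.63 FPKM for erythroid genes, 37.2 for B cell, 33.1 for T and NK cell, 28.7 for basophil and mast cell and 11.8 for stromal markers. The part of cycling, of macrophage state and of these other cells in the results was not tested.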

How the data were processed

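RNA was measured by RNA-seq in 4 libraries, 2 per group. Per the submitters' processing notes, the authors used TopHat and Cufflinks with build mm9; no version, annotation or option is stated. The deposited values were read as FPKM, the unit Cufflinks writes; the file headers name none. They sum to between 2125327 and 2389348 per library over all symbols and their scale is unclear, so levels are described and folds compared. Depth is unknown, so no counting interval was computed. For replicate 2, values of 27583 transcripts were summed to 22026 symbols, after 25 symbols turned into dates were restored.

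log2(FPKM + 1) was tested in limma 3.58.1 (R 4.3.3) for 11851 genes whose mean reached 1 FPKM, by group alone. The test used a trended variance and Benjamini-Hochberg adjustment (two-sided, threshold 0.05). Differences were also taken inside each replicate number. Other filters, pseudocounts, scalings, transcript summing, a replicate block and leaving out each library were tried. Members and lists were chosen with earlier results of these data known. Values of every library are given for members at least 1.5-fold in both pairs and for the 3 most abundant per role, and values of most others are given too; of each list of other pathway genes the 3 with the largest smaller pair difference are named. Figures used Python 3.11.15 and matplotlib 3.10.9.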

Additional observations from a re-analysis of the deposited data

How the results depend on the processing

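No gene passed the adjusted threshold in limma under any of the 14 alternatives, and the members' adjusted p was 0.137 at its lowest, with the replicate block, and at least 0.683 under the others. At least 1.5-fold lower in both pairs were 282 genes with a pseudocount of 5, against 430. Among members, 2 were higher by as much with a pseudocount of 0.1, upper-quartile or median scaling, and 0 with a pseudocount of 5 or the highest transcript per symbol, against 1, while 1 was lower under upper-quartile, median or quantile scaling, against 2. The glycolytic median was -0.16 under upper-quartile and median scaling and -0.14 under quantile normalization, and between -0.43 and -0.13 when 1 library was left out, where the lone library of a group is assumed to vary like the other group. The HIF median then ranged from -0.02 to 0.12. Scaling moved the median of all genes by at most 0.05, to 0.00. Glycolytic members lower in both pairs numbered 11 under median scaling, which lost Pfkl and Aldoa, and 12 under quantile normalization, which lost Aldoa.

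Of the 35 members, 3 changed sign under scaling. Under upper-quartile scaling, median scaling and quantile normalization in turn, Arnt was 0.034, 0.037 and 0.027, Egln1 0.0285, 0.032 and 0.033, and Bnip3 0.032, 0.035 and 0.011. Arnt was 0.23 with the highest transcript. Without 1 library, signs changed for 18 of the 35, with ranges of -0.47 to 0.14 for Slc2a1, -0.35 to 0.46 for Hk1, -0.014 to 0.61 for Hk2, -0.47 to 0.27 for Pfkl, -0.59 to 0.42 for Pfkm, -0.11 to 0.15 for Pfkfb4, -0.38 to 0.019 for Aldoa, -1.01 to 0.31 for Slc16a3, -0.42 to 0.10 for Pdk1, -0.17 to 0.15 for Arnt, -0.058 to 0.61 for Vhl, -0.12 to 0.087 for Egln1, -0.32 to 0.035 for Egln2, -0.44 to 1.09 for Vegfa, -0.14 to 0.12 for Bnip3, -0.36 to 0.41 for Bnip3l, -0.69 to 1.62 for Ankrd37 and -0.73 to 0.63 for Mxi1. How many of all genes changed sign in these ways was not counted, so neither count is a result about the members. The cause was not tested.

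With a replicate block, limma again called 0 genes at an adjusted p under 0.05. At an unadjusted p under 0.05 it called 1557 of 11851 genes, against 524 without the block. Among these 1557 were 6 of the 35 members, namely Hk3, Pfkp, Pfkfb3, Tpi1, Pgam1 and Hif1a. The deviations of same-numbered libraries correlated across genes with r = 0.64, but the labels do not say that numbers pair the libraries and there are only 2 pairs. Depth is unknown, so counting error could not be separated from other spread.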
